A study of Mus musculus with 10 samples.

Results

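Small RNA-seq libraries from Day 6 mPGCLCs of the BG5 and E14 mESC lines were compared. They are 4 of the 10 libraries analysed here, 2 of each line, and were chosen by their labels alone. mPGCLCs are mouse primordial germ cell-like cells, which form inside embryoid bodies (EBs) when epiblast-like cells are aggregated with BMP4. E14 is a reporter-free XY line of strain 129/Ola, and per the study's methods its mPGCLCs were sorted as Ssea1-positive and Cd61-positive. BG5 is an XY line with a Blimp1-GFP reporter on a mixed C57BL/6J/DBA/129 background, and its mPGCLCs were sorted as positive for Ssea1 and Blimp1-GFP. The labels give instead, for every library, a Stella-GFP and Esg1-tdTomato gate, which are the reporters of the third line of the series, SGET. Each line is 1 mESC line, so line, strain, reporter and sort markers cannot be told apart here. The surrounding EB cells of the same lines (non-PGCLC, 2 libraries each) were used to ask whether a line difference was also present in the other sorted cells, and the 2 remaining libraries are SGET non-PGCLC.

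A miRNA is cut from a hairpin precursor, each side of which (the 5p and the 3p arm) can give a mature strand of about the length of the reads counted here. Bases 2 to 8 from the 5′ end, the seed, pair with target mRNAs, so arms with the same seed have largely the same targets. The miR-290 cluster and the miR-302 cluster have members with a common seed and are known from pluripotent cells, the first from naïve stem cells and early germ cells and the second from the post-implantation epiblast. The let-7 family accumulates as cells differentiate, and its processing is blocked by Lin28 in pluripotent and early germ cells. The Dlk1-Dio3 cluster is a large imprinted group of miRNAs expressed from the maternally inherited chromosome.

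The mature sequences of the arms on which the comparison turns are given below, 5′ to 3′, from RefSeq (GRCm38.p6), with the seed in capitals. Arms are named by their GENCODE hairpin symbol and side, let-7 arms by their usual name, and an arm that several hairpins give in the same form carries 1 name. The let-7 5p arms, shown because they all had the same seed and 8 of them were lower in BG5 mPGCLC, are followed by Mir672-5p, which was also lower and whose seed differs from theirs by A7U (positions are counted from 1 at the 5′ end, let-7a first).
let-7a-5p: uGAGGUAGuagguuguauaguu
let-7b-5p: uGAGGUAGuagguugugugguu
let-7c-5p: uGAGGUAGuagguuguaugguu
let-7d-5p: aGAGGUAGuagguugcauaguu
let-7e-5p: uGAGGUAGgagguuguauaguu
let-7f-5p: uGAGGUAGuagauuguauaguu
let-7g-5p: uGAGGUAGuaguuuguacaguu
let-7i-5p: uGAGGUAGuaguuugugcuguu
Mir672-5p: uGAGGUUGguguacuguguguga

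Some of the arms of the miR-290 and miR-302 clusters that share the seed AAGUGCU are shown, and Mir291a-3p is among those left out. They are given because the part of this seed's reads that came from each cluster differed between the lines. Over their first 8 bases Mir302b-3p and Mir294-3p differ by U1A.
Mir294-3p: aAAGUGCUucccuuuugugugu
Mir295-3p: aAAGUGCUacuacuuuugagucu
Mir302b-3p: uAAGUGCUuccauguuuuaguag
Mir302d-3p: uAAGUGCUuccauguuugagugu

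Mir292-5p was the most abundant arm of both lines. Mir291a-5p and Mir291b-5p share the seed AUCAAAG, differ by C1G and U22C (Mir291a-5p first) and moved in opposite directions. Mir541-5p and Mir370-3p belong to the Dlk1-Dio3 cluster.
Mir292-5p: aCUCAAACugggggcucuuuug
Mir291a-5p: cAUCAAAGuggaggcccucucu
Mir291b-5p: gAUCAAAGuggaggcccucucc
Mir541-5p: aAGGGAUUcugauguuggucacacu
Mir370-3p: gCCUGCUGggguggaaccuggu

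The E14 mPGCLC libraries held 8274092 and 8046414 reads that mapped to the genome, and the BG5 mPGCLC libraries 8251090 and 10227279. Shares and RPM below are of these mapped reads. Reads of 18 to 26 nt that matched a hairpin were counted per arm and are given as RPM, that is, scaled to the total reads of the library. They made up 34.5% and 31.6% of the E14 libraries and 21.7% and 14.97% of the BG5 libraries. The difference of the mean miRNA shares was -14.7 percentage points (E14 33.0% ± 2.02, BG5 18.3% ± 4.78, SD, n = 2 each), with no overlap, but a two-sided exact permutation test of 2 against 2 libraries cannot go below p = 0.333, the value it gave. Arms with reads numbered 479 and 439 in E14 and 424 and 484 in BG5. The markers fixed for pluripotent and early germ cells were by far the most abundant list in all 4 libraries, at 224300 and 196575 RPM in E14 and 75176 and 52745 RPM in BG5. Markers of blood (6 tested arms) summed to 143 and 111 RPM in E14 and 55.4 and 23.9 RPM in BG5, and those of epithelium (10) to 2207 and 2269 RPM against 4884 and 3788 RPM. Those of liver and endoderm, Mir122-5p (log2 change -0.77) and Mir375-3p (5.66), summed to 17.6 and 6.71 RPM against 313 and 84.6 RPM. The sums of the endothelium, muscle and neural lists overlapped between the lines. No arm of these 6 lists was called by edgeR. At an unadjusted p under 0.05 there were 1 higher and 1 lower arm of the epithelium list and 1 higher of liver and endoderm, and DESeq2 called 1 lower and 1 higher of these lists. In a bulk library, fewer cells of a type and less RNA per cell cannot be told apart.

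Of 562 arms tested, 57 were called (10.1%), that is, had an adjusted p under 0.05 in edgeR's quasi-likelihood test with Benjamini-Hochberg adjustment. In BG5 mPGCLC 30 were higher (5.34%) and 27 lower (4.8%). DESeq2 called 103 arms, 55 higher and 48 lower. The 30 to 27 split became 34 to 20 when total reads were used without TMM scaling and 63 to 9 when miRNA reads were the library size. With miRNA reads the median log2 change of all arms moved from 0.00 to 1.02, so changes are relative to that choice. In TMM-scaled counts the libraries of both lines did not overlap in 285 arms (50.7%) and in 56 of the 57 called. The called arms sat largely in 4 groups: 19 higher arms of the Dlk1-Dio3 cluster, 2 of the miR-302 cluster, 11 lower and 1 higher of the miR-290 cluster, and 9 lower of the let-7 family. Another 8 called arms were in none of the 19 lists. Of the 38 arms with a mean of at least 1000 RPM, 4 were higher, 17 lower and 17 not called, and 9 of the last were within 0.5 of 0 on the log2 scale.

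**Figure D1:**
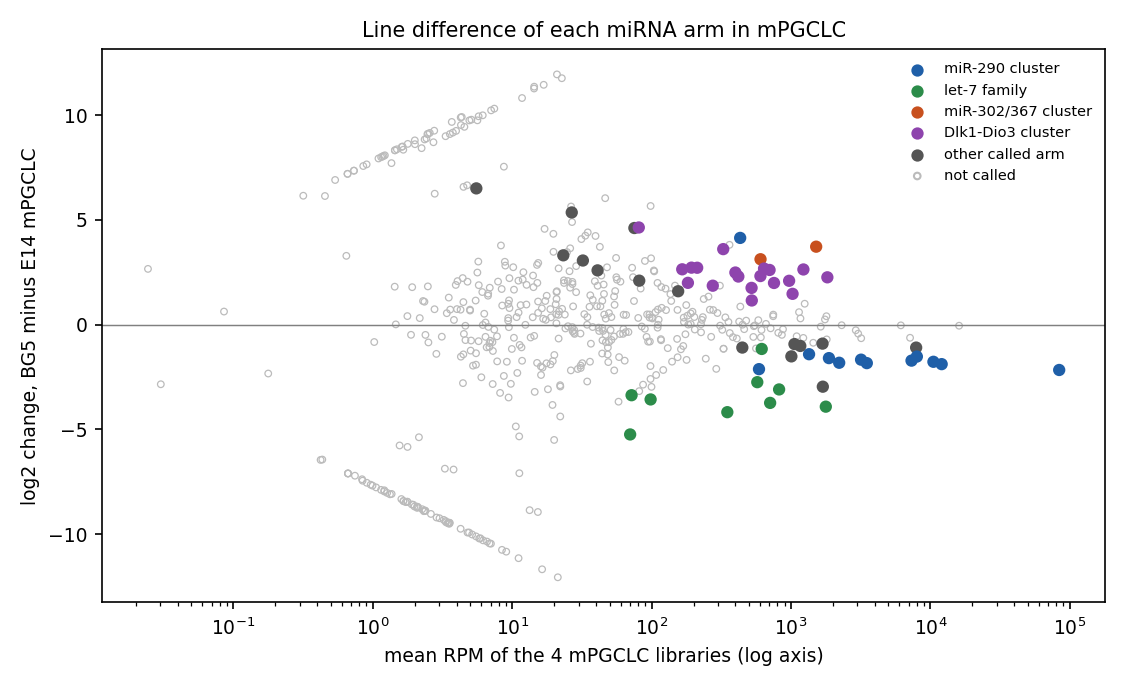
Log2 change of each arm (BG5 minus E14 mPGCLC, vertical axis) against its mean RPM over the 4 mPGCLC libraries (log axis), with called arms filled and coloured by group and arms not called as open grey circles. The 11 lower miR-290 arms lie at the abundant end, the called Dlk1-Dio3 arms between 1.15 and 4.63, and the called let-7 arms below 0.

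The most abundant arms were mainly shared, but took up different parts of the miRNA pool. Of the 10 arms with most reads in each line 9 were in both, 11 arms in all. The 10 most abundant arms of each single library held 72.7% and 70.9% of the arm reads in the E14 libraries and 49.9% and 48.9% in the BG5 libraries. Mir292-5p ranked first in each of the 4 libraries, with 43.8% and 37.4% of the arm reads in E14 and 19.1% and 17.7% in BG5. Mir92-1-3p, an arm of the miR-17-92 cluster, had rank 4 in E14 and rank 2 in BG5, at 16033 and 14988 RPM against 19049 and 14165 RPM. Its libraries overlapped and its log2 change was -0.05 (SE 0.21). The arm that entered the upper 10 in BG5 alone was Mir541-5p, and Mir295-3p was there in E14 alone.

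**Figure D2:**
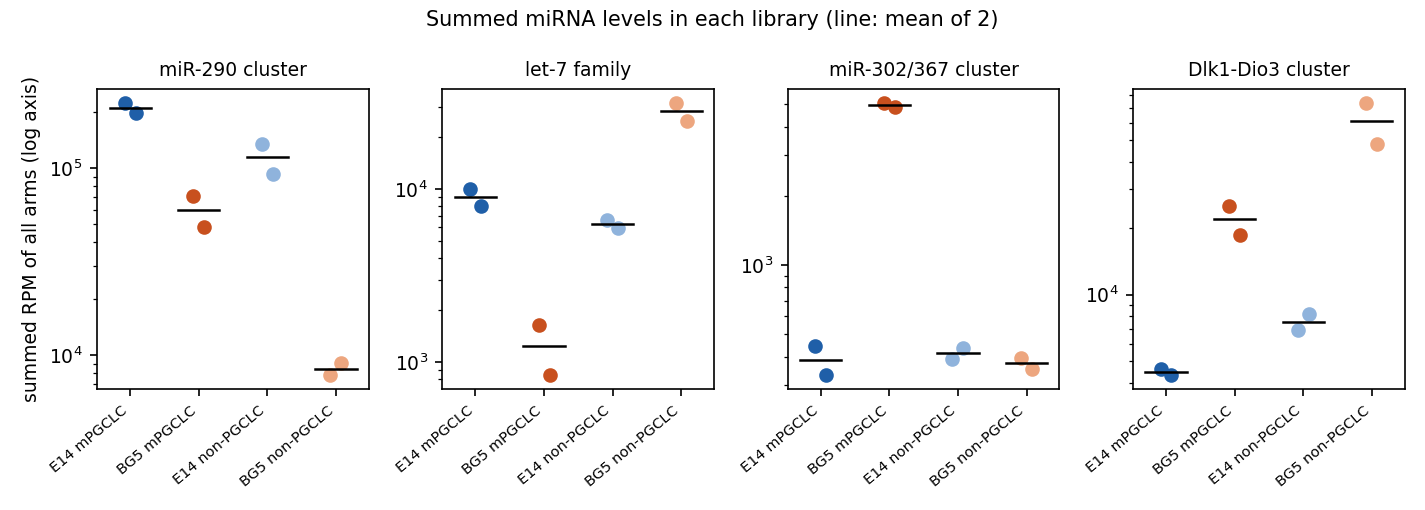
Summed RPM (log axis, a separate scale for each panel) of all arms of 4 miRNA groups in each library of the E14 and BG5 mPGCLC and non-PGCLC groups, with points for libraries and lines for the mean of 2. In mPGCLC the BG5 libraries lie below E14 for the miR-290 cluster and the let-7 family, and above it for miR-302 and Dlk1-Dio3.

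The miR-290 cluster was lower in BG5 mPGCLC at nearly every arm. Its hairpins lie on chromosome 7, from Mir290a at chr7:3218626-3218708 to Mir295 at chr7:3220773-3220841 on the plus strand, with no host gene. Its summed level was 223933 and 196281 RPM in E14 and 71193 and 48473 RPM in BG5, or 65.2% and 62.3% of miRNA reads against 33.0% and 32.6%. Both BG5 libraries were below both E14 libraries on either scale. Of 14 arms tested, 11 were lower, 1 was higher and 2 were not called, with a median log2 change of -1.75 against 0.00 over all arms tested.

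Mir292-5p stood at 150300 and 117837 RPM in E14 and at 41191 and 26276 RPM in BG5, a log2 change of -2.17 (SE 0.23, adjusted p 9.73e-06, edgeR). It was lower in both BG5 libraries and kept its call under each of the 17 alternatives tried. Mir292-3p, from the other side of the same hairpin, fell from 18294 and 18803 to 6228 and 4859 RPM (log2 change -1.89, SE 0.28). Mir290a-5p was at 16735 and 15217 RPM in E14 and 5058 and 5043 RPM in BG5, a log2 change of -1.78 (SE 0.32). Mir294-3p and Mir295-3p, which share their seed with each other and with Mir291a-3p, fell by 1.72 and 1.84 on the log2 scale. Mir293-3p was at 9610 and 13468 RPM in E14 and 5201 and 3707 RPM in BG5 (log2 change -1.53, SE 0.33). Mir294-3p and Mir295-3p did not overlap between the lines: Mir294-3p was at 11185 and 10623 RPM in E14 and 4620 and 2863 RPM in BG5, and Mir295-3p at 5323 and 5374 RPM against 1834 and 1466 RPM. With miRNA reads as the library size all these changes stayed negative, but Mir292-5p was then the only lower arm of the cluster that was called (median log2 change -0.73).

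Mir291b-5p went the other way. Its hairpin is inside the same cluster, at chr7:3219482-3219560, between Mir292 and Mir293. It had 44.1 and 37.5 RPM in E14 and 1077 and 570 RPM in BG5, a log2 change of 4.14 (SE 0.54, adjusted p 4.89e-05, edgeR), and was called under each of 17 alternatives. The arm with the same seed from the first copy, Mir291a-5p (chr7:3218919-3219000), was at 2503 and 2977 RPM in E14 and 1160 and 849 RPM in BG5, a log2 change of -1.60 (SE 0.30). Thus the share of Mir291b-5p among reads of both arms was 1.73% and 1.24% in E14 mPGCLC and 48.2% and 40.2% in BG5 mPGCLC. The non-PGCLC libraries of each line lay close to their mPGCLC libraries, with 3.50% and 1.94% in E14 and 45.3% and 57.6% in BG5, and the SGET non-PGCLC libraries were at 39.2% and 41.6%. Both arms differ only at the first and the last base shown above, so reads that hold neither base cannot be assigned to either arm.

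The miR-302 cluster was rare in E14 and abundant in BG5 mPGCLC. Its hairpins are on chromosome 3, with Mir302b at chr3:127545228-127545301 and Mir302d at chr3:127545624-127545689 on the plus strand. The sum over the cluster was 443 and 332 RPM in E14 and 5088 and 4878 RPM in BG5. Of 8 arms tested, 2 were higher and none was lower by edgeR (3 and 0 by DESeq2 and at an unadjusted p under 0.05), all 8 had a positive log2 change, and the median was 3.76. Mir302b-3p had 245 and 146 RPM in E14 and 3068 and 2605 RPM in BG5, a log2 change of 3.72 (SE 0.43, adjusted p 1.33e-05, edgeR). It rose from rank 90 to rank 11 and did not overlap between the lines. Mir302d-3p was at 112 and 125.1 RPM in E14 and 987 and 1195 RPM in BG5, a log2 change of 3.12 (SE 0.73). Its call was lost without BG5 replicate 2, where the change was 2.65 and 1 arm of the cluster remained called.

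Summed by seed, the reads of AAGUGCU arms were lower in BG5. The 6 arms of this seed held 20455 and 19415 RPM in E14 and 12092 and 9073 RPM in BG5, a log2 change of -1.40 (SE 0.27, adjusted p 0.00101, edgeR over 468 seed groups). Without TMM scaling the change was -0.91 and not called. The part of these reads that came from miR-302 hairpins was 1.82% and 1.51% in E14 and 35.1% and 43.8% in BG5. Both lines thus had reads with this seed, from miR-290 hairpins nearly alone in E14 and from both clusters in BG5.

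Most arms of the let-7 family were lower in BG5 mPGCLC. The sum over the family was 10044 and 7990 RPM in E14 and 1631 and 839 RPM in BG5, with both BG5 libraries below both E14 libraries. Of 13 arms tested, 9 were lower and none higher by edgeR (and by DESeq2), and none was higher at an unadjusted p under 0.05, with a median log2 change of -3.37. Those that come from a single hairpin lie on chromosomes 9, 10, 13, 15 and 17, while reads of let-7a-5p, let-7c-5p and let-7f-5p cannot be split between their hairpins. The alternatives called 6 to 9 of them lower, the fewest without E14 replicate 1.

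The most abundant member, let-7a-5p, from Mirlet7a-1 (chr13:48538179-48538272, minus strand) and Mirlet7a-2 (chr9:41536716-41536811, plus strand), had 3879 and 2728 RPM in E14 and 331 and 173 RPM in BG5. Its log2 change was -3.92 (SE 0.35, adjusted p 1.26e-06, edgeR), and it fell from rank 15 to rank 92. let-7g-5p, from an intron of Wdr82 (chr9:106178840-106178927), changed by almost as much, from 1149 and 1467 RPM to 134 and 86.5 RPM (log2 change -3.74, SE 0.33). let-7d-5p, which shares a chromosome 13 transcript with Mirlet7a-1 and Mirlet7f-1, fell from 741 and 581 RPM to 31.0 and 45.4 RPM (log2 change -4.18, SE 0.47). In each of these 3 arms the lowest E14 library was well above the highest BG5 library, and each was called under all 17 alternatives. let-7f-5p went from 1493 and 1400 RPM to 273 and 121 RPM (log2 change -3.09, SE 0.34), and let-7c-5p from 1244 and 702 RPM to 262 and 85.5 RPM (log2 change -2.75, SE 0.39). These 2 arms did not overlap between the lines either and kept their calls throughout.

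The remaining members were rarer and their calls rested on single libraries or settings. let-7b-5p was at 311 and 49.7 RPM in E14 and 17.6 and 15.9 RPM in BG5, a log2 change of -3.57 (SE 0.75) that was -1.63 and not called without E14 replicate 1. let-7i-5p, at 163 and 109 RPM in E14 and 7.51 and 1.37 RPM in BG5 (log2 change -5.24, SE 1.45), was not called with a filter of 10 RPM or with a mismatch allowed in the first 18 bases. let-7d-3p, the other side of the let-7d hairpin, was at 171 and 86.6 RPM in E14 and 23.6 and 6.55 RPM in BG5 (log2 change -3.37, SE 0.83). Its call was lost without E14 replicate 1 (-2.73), without BG5 replicate 2 (-2.88), with exact hairpin matches only and with miRNA reads as the library size.

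**Figure D3:**
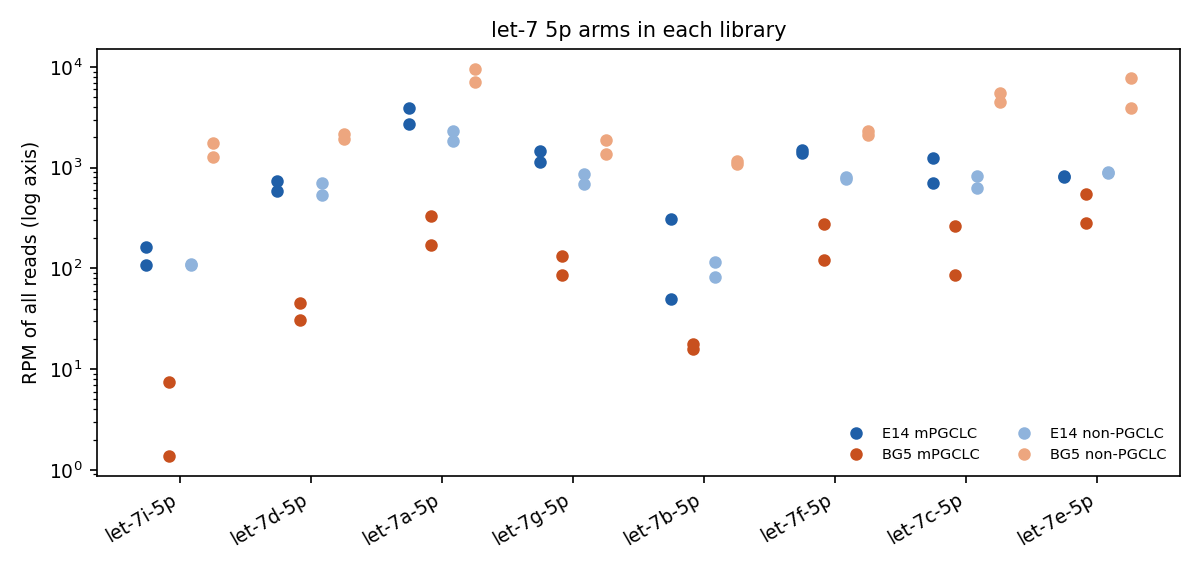
RPM (log axis) of the let-7 5p arms in each library of the E14 and BG5 mPGCLC and non-PGCLC groups, with 1 point per library. The BG5 mPGCLC points are the lowest of each arm, and let-7e-5p has the smallest gap between the lines in mPGCLC.

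let-7e-5p changed least. It stood at 825 and 806 RPM in E14 and 551 and 285 RPM in BG5, a log2 change of -1.16 (SE 0.28, adjusted p 0.00991, edgeR), and was not called without TMM scaling, without E14 replicate 1, without BG5 replicate 2 or in 3 other settings. Among the family's reads its part was 8.21% and 10.1% in E14 and 33.8% and 33.9% in BG5, where it was the first member in place of let-7a-5p, at 20.3% and 20.6%. Against let-7a-5p its sequence has U9G. Its hairpin (chr17:17830352-17830444) lies in an intron of Spaca6 between Mir99b (chr17:17830188-17830257) and Mir125a (chr17:17830812-17830879). Of these neighbours, Mir125a-5p was at 1614 and 1428 RPM in E14 and 2167 and 1802 RPM in BG5. Neither Mir125a-5p (log2 change 0.25) nor Mir99b-5p (0.40) was called.

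Mir672-5p, whose seed is like that of let-7 except for A7U, was also lower. It comes from an intron of Nexmif on the X chromosome (chrX:104116175-104116274, minus strand). It had 3556 and 2386 RPM in E14 and 412 and 414 RPM in BG5, a log2 change of -2.96 (SE 0.36, adjusted p 2.08e-05, edgeR), with no overlap and a call under all 17 alternatives. Mir7-5p, from Mir7-1 in a Hnrnpk intron and Mir7-2, went from 1341 and 1553 RPM to 677 and 455 RPM (log2 change -1.52, SE 0.31). Both BG5 libraries were below E14, and the call was lost with miRNA reads as the library size.

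The Dlk1-Dio3 cluster was higher in BG5 mPGCLC. These hairpins lie on chromosome 12, within and around the non-coding RNAs Rian and Mirg. The summed level was 4594 and 4321 RPM in E14 and 25253 and 18623 RPM in BG5, or 1.34% and 1.37% of miRNA reads against 11.7% and 12.5%. Of 86 arms tested, 19 were higher, none was lower and 67 were not called by edgeR (31 and 0 at an unadjusted p under 0.05, and 33 and 0 by DESeq2), and the median log2 change was 2.28. Of the 81 arms with any read in these 4 libraries, 78 had a positive log2 change, against 280 of 547 over all detected arms. In TMM-scaled counts both BG5 libraries were above both E14 libraries in 64 of the 81, against 149 of all 562 arms tested (26.5%). All 22 arms with a mean of at least 100 RPM were positive and 18 of them were called, so most arms without a call were below this level. The alternatives called 16 to 33 arms higher and none lower.

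Mir541-5p, from an intron of Mirg (chr12:109742409-109742498, plus strand), was the most abundant arm of the cluster. It had 638 and 511 RPM in E14 and 3620 and 2525 RPM in BG5, a log2 change of 2.26 (SE 0.28, adjusted p 3.06e-05, edgeR), and moved from rank 53 to rank 10. Mir409-3p, also from a Mirg intron, at chr12:109743158-109743236, had 303 and 321 RPM in E14 and 2457 and 1831 RPM in BG5 (log2 change 2.63, SE 0.29). Mir370-3p, from an intron of Rian (chr12:109618258-109618336), had 53.3 and 36.4 RPM in E14 and 707 and 510 RPM in BG5, the second largest called change of the cluster (log2 change 3.60, SE 0.49). None of these 3 arms overlapped between the lines, and each was called under all 17 alternatives. Mir433-3p was at 206 and 112 RPM in E14 and 1219 and 1026 RPM in BG5 (log2 change 2.67, SE 0.42), and Mir323-3p at 236 and 125.02 RPM against 1372 and 1076 RPM (log2 change 2.61, SE 0.44).

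Several other calls of the cluster rested on single libraries. Mir434-3p was at 305 and 380 RPM in E14 and 1736 and 1459 RPM in BG5 (log2 change 2.09, SE 0.30) and was called throughout. Mir434-5p was at 2.66 and 8.33 RPM in E14 and 213 and 99.7 RPM in BG5, the largest called change of the cluster (log2 change 4.63, SE 1.01), but not called without E14 replicate 1 (4.08). Mir411-3p, at 60.7 and 32.3 RPM in E14 and 383 and 297 RPM in BG5 (log2 change 2.72, SE 0.71), lost its call without E14 replicate 2 (2.29) and with exact hairpin matches. The smallest called change was that of Mir485-3p, at 371 and 228 RPM in E14 and 894 and 602 RPM in BG5 (log2 change 1.15, SE 0.35), which lost its call in 7 of 17 alternatives, among them those without E14 replicate 2 and without either BG5 library. Mir494-3p and Mir495-3p, with log2 changes of 1.99 and 1.86, lost theirs in 11 and 3. For Mir494-3p these included the absence of any 1 of the 4 libraries, and for Mir495-3p of either E14 library or of BG5 replicate 2.

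**Figure D4:**
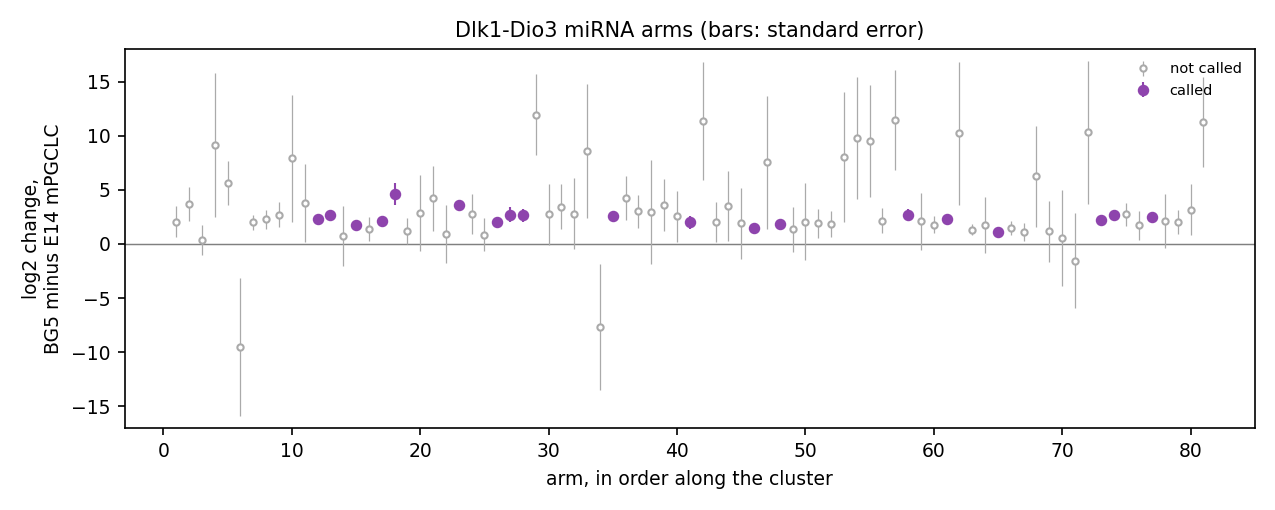
Log2 change (BG5 minus E14 mPGCLC) with its standard error for the 81 detected Dlk1-Dio3 arms in their order along the cluster, with called arms filled. The 19 called arms are spread from place 12 to place 77 of the order and all lie above 0, and arms with wide bars are rare ones.

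A few arms of other loci were also higher in BG5 mPGCLC. Mir125b-5p, from Mir125b-1 and Mir125b-2, had 3.38 and 9.69 RPM in E14 and 54.8 and 60.8 RPM in BG5 (log2 change 3.06, SE 0.50, adjusted p 0.000371, edgeR). Mir199-3p, which the hairpins Mir199a-1, Mir199a-2 and Mir199b share, had 10.9 and 12.1 RPM in E14 and 49.2 and 91.9 RPM in BG5 (log2 change 2.59, SE 0.38), and 1.69 without BG5 replicate 2. Mir214-3p had 0.483 and 6.96 RPM in E14 and 62.9 and 22.8 RPM in BG5 (log2 change 3.31, SE 0.78), and 6.14 without E14 replicate 2. In all 3 the lines did not overlap, and all 3 calls were lost when only the 4 mPGCLC libraries were fitted, which leaves the spread to be estimated from them alone.

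Mir199-3p and Mir214-3p are members of the list of mesenchyme markers, and both were far more abundant in BG5 non-PGCLC, with 13281 and 7569 RPM of Mir199-3p there. The whole list, of which 2 of 8 tested arms were higher and 1 lower, summed to 589 and 683 RPM in E14 mPGCLC, 593 and 306 RPM in BG5 mPGCLC and 28680 and 17982 RPM in BG5 non-PGCLC. The lower arm was Mir143-3p, at 530 and 628 RPM in E14 and 447 and 185 RPM in BG5 (log2 change -1.10, SE 0.31), which was not called without E14 replicate 2 or without BG5 replicate 2. The sums of the list overlapped between the mPGCLC lines, and 3 of its 9 arms had no read in E14 mPGCLC and 2 none in BG5 mPGCLC. The part of other EB cells in these libraries was not tested.

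Mir181a-5p was at 11.0 and 0 RPM in E14 and 129 and 161 RPM in BG5 (log2 change 4.61, SE 1.35). Without E14 replicate 1, which held its only E14 reads, the change has no fixed size. Mir3099-3p, from an intron of the paternally expressed gene Usp29 (chr7:6803587-6803670), was at 0 and 2.36 RPM in E14 and 57.1 and 47.6 RPM in BG5 (log2 change 5.35, SE 1.44), a change that likewise has no fixed size without E14 replicate 2. Both arms were higher in each BG5 library, and neither was called when only the 4 mPGCLC libraries were fitted. Mir335-5p, from an intron of the paternally expressed gene Mest, was at 65.9 and 77.2 RPM in E14 and 273 and 204 RPM in BG5 (log2 change 1.59, SE 0.36). Mir483-3p, from an intron of the paternally expressed gene Igf2, was at 40.7 and 11.7 RPM in E14 and 217 and 57.4 RPM in BG5 (log2 change 2.10, SE 0.57). Neither of these overlapped between the lines. Mir335-5p lost its call without E14 replicate 1 or BG5 replicate 2, and Mir483-3p without E14 replicate 2 or BG5 replicate 1. Mir100-5p was called on 21.9 RPM in BG5 replicate 2 alone, with 0 RPM in BG5 replicate 1 and 0.121 and 0.124 RPM in E14, and it was the only called arm whose libraries overlapped and was not called without BG5 replicate 2.

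In other groups with abundant arms few or no arms were called. None of the 24 arms of the miR-17-92 cluster and its paralogs was called by edgeR (2 were lower at an unadjusted p under 0.05, and DESeq2 called 2 lower), and their sum was 30986 and 28986 RPM in E14 and 35130 and 25795 RPM in BG5. As a part of miRNA reads this group was at 9.02% and 9.20% in E14 and at 16.3% and 17.3% in BG5. None of the 28 arms of the Sfmbt2 cluster was called by edgeR or DESeq2 or had an unadjusted p under 0.05. The X-linked miR-465 cluster summed to 1340 and 972 RPM in E14 and to 221 and 159 RPM in BG5, with no overlap. Of its 20 arms 18 had a negative log2 change, but edgeR called none (4 were lower at an unadjusted p under 0.05) and DESeq2 called 5 lower. Mir182-5p, of the miR-183 cluster, was at 8665 and 11993 RPM in E14 and 7003 and 3955 RPM in BG5 (log2 change -1.10, SE 0.24), and was not called without TMM scaling. Mir30a-5p and Mir30c-5p were lower by 0.93 and 1.02 on the log2 scale, without a call in 10 and 8 of 17 alternatives, among them those that left out any 1 of the 4 libraries. Mir191-5p (log2 change -0.91) lost its call in 8, again without any 1 of the 4 libraries among them. None of the 8 arms of the miR-200 family, expressed in epithelia, was called by edgeR (1 higher and 1 lower at an unadjusted p under 0.05, and DESeq2 called 1 lower), and the sum was 1901 and 1984 RPM in E14 and 4337 and 3172 RPM in BG5, with no overlap.

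The other abundant arms and the leading arms of other lists that the naming rule took were not called. Mir148a-3p was at 508 and 736 RPM in E14 and 489 and 415 RPM in BG5 (log2 change -0.59, SE 0.42). Mir183-5p, at 7174 and 9132 RPM in E14 and 8655 and 3627 RPM in BG5 (-0.63, SE 0.26), overlapped in RPM. Mir92-2-3p was at 6205 and 5603 RPM against 7160 and 5585 RPM (-0.04, SE 0.30). Mir16-5p, Mir27b-3p, Mir30d-5p and the Mir669 arm of the Sfmbt2 cluster overlapped as well, with log2 changes of 0.03, -0.18, -0.10 and -0.03. Mir200b-3p was at 814 and 751 RPM in E14 and 1945 and 1507 RPM in BG5 (log2 change 0.995, SE 0.35), and Mir34a-5p, a known target of p53, at 279 and 259 RPM against 72.2 and 103 RPM (-1.69, SE 0.76). Mir196a-5p, from the Hox clusters, was at 198 and 218 RPM in E14 and 111 and 34.6 RPM in BG5 (log2 change -1.77, SE 0.80). Mir465c-5p was at 228 and 126 RPM in E14 and 53.4 and 24.4 RPM in BG5 (-2.41, SE 0.97). In these 4 arms the lines did not overlap, as in 50.7% of all arms tested (in TMM-scaled counts). The same held for Mir148a-3p and Mir221-3p and, in TMM-scaled counts, for Mir183-5p and Mir351-5p. Mir221-3p was at 123 and 63.9 RPM against 55.6 and 13.8 RPM (-1.72, SE 1.32), and Mir351-5p at 88.8 and 60.5 RPM against 148 and 88.8 RPM (0.48, SE 0.40).

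Of 468 seed groups, 42 were called (8.97%), 21 higher (4.49%) and 21 lower (4.49%), or 25 and 8 without TMM scaling. The let-7 seed GAGGUAG, with 10 arms, went from 9867 and 7901 RPM in E14 to 1607 and 830 RPM in BG5 (log2 change -3.43, SE 0.25, adjusted p 3.65e-09, edgeR). The seed CUCAAAC of Mir292-5p, Mir290a-5p and Mir293-5p went from 170900 and 138597 RPM to 48308 and 32580 RPM (log2 change -2.45, SE 0.24). Both sums were lower in both BG5 libraries. The seed AUCAAAG of both Mir291 arms went from 2547 and 3015 RPM to 2237 and 1419 RPM (log2 change -1.12, SE 0.33), and was not called without TMM scaling (-0.61). The seed AUUGCAC of the Mir92 arms was at 25792 and 23495 RPM in E14 and 29081 and 21682 RPM in BG5. It was not called (log2 change -0.45, SE 0.22), and its libraries overlapped in RPM, so this direction is relative to TMM. TMM factors were computed anew on the seed counts, so log2 changes of seed groups and of arms are not on the same scale.

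The same contrast in non-PGCLC cells compares the group means of 4 other libraries, in the fit of all 10 libraries that gives both contrasts 1 estimate of the spread for each arm. It called 86 of 562 arms (15.3%), 44 higher (7.83%) and 42 lower (7.47%) in BG5, or 73 and 23 without TMM scaling and 75 and 74 by DESeq2. Of the 57 arms called in mPGCLC, 37 were called there in the same direction, 5 in the opposite direction and 15 were not called. These 42 arms are 73.7% of the arms called in mPGCLC and 48.8% of those called in non-PGCLC. The difference between the line differences was tested in the same fit. It was called for 32 arms (5.69%), 22 positive (3.91%) and 10 negative (1.78%), or 15 and 18 without TMM scaling and 46 and 31 by DESeq2, and for 25 of the 57. Without TMM scaling the median of all arms moved to 1.18 in non-PGCLC and to -0.79 for the difference, so directions here are relative to TMM.

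**Figure D5:**
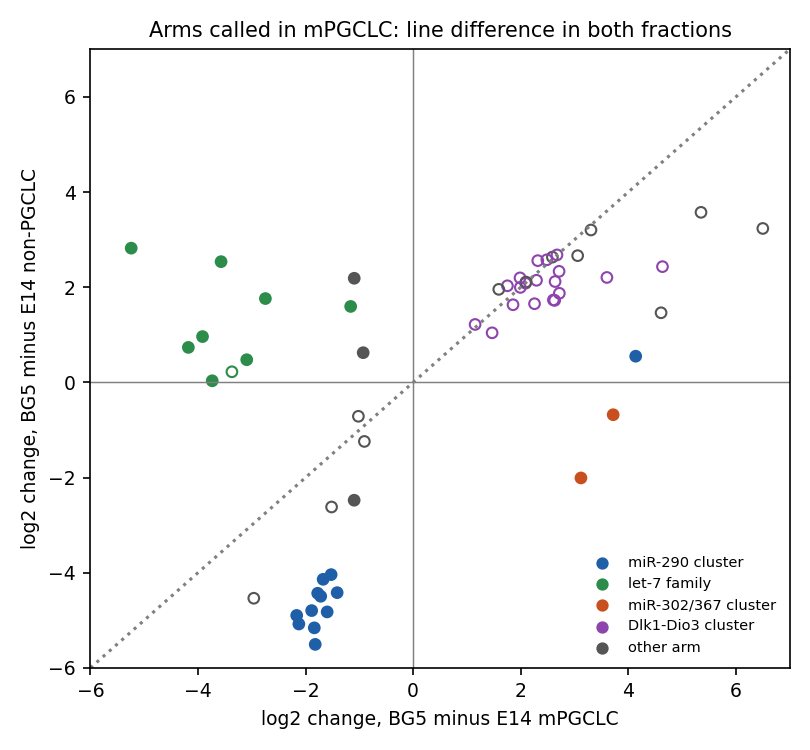
Log2 change (BG5 minus E14) in mPGCLC (horizontal axis) and in non-PGCLC (vertical axis) for the 57 arms called in mPGCLC, filled where the difference between both changes was called, with the dotted line marking equal change. Dlk1-Dio3 arms lie above 0 on both axes, the farthest from that line being Mir434-5p (4.63 and 2.43), miR-290 arms below it in the lower left except for Mir291b-5p, let-7 arms in the upper left and miR-302 arms in the lower right, where Mir302b-3p is at -0.68 in non-PGCLC with TMM and at 0.33 without it.

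For the Dlk1-Dio3 cluster edgeR called 22 arms higher in BG5 non-PGCLC, and none was lower by edgeR, by DESeq2 or at an unadjusted p under 0.05, with a median log2 change of 2.17, and edgeR called no arm for the difference between the cell fractions. At an unadjusted p under 0.05 there were 3 positive and 4 negative arms, and DESeq2 called 2 positive and 3 negative. The median difference was 0.00 with TMM and -0.89 without it, and the mean summed level went from 4458 to 21938 RPM in mPGCLC and from 7558 to 61124 RPM in non-PGCLC. For the miR-290 cluster 12 arms were lower in BG5 non-PGCLC, with a median of -4.65, and the difference was positive and called in 12 of 14 arms. Mir292-5p, for example, was at 87003 and 56904 RPM in E14 non-PGCLC and at 4803 and 4767 RPM in BG5 non-PGCLC, and its line difference in mPGCLC was 2.73 (SE 0.32) less negative.

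The let-7 family had opposite directions. It summed to 6669 and 5928 RPM in E14 non-PGCLC and 31617 and 24809 RPM in BG5 non-PGCLC, where edgeR and DESeq2 each called 4 arms higher (7 in edgeR without TMM scaling) and none lower, and none was lower at an unadjusted p under 0.05. The difference between the line differences was called in 8 of 13 arms, all negative. let-7a-5p was at 2326 and 1860 RPM in E14 non-PGCLC and 9629 and 7100 RPM in BG5 non-PGCLC, and the difference was -4.88 (SE 0.46, adjusted p 6.19e-06, edgeR). Thus BG5 held the lowest let-7a-5p libraries of the 4 groups in mPGCLC and the highest in non-PGCLC. Of the miR-302 cluster no arm was called in non-PGCLC by edgeR or DESeq2 (1 was lower at an unadjusted p under 0.05), where it summed to 389 and 438 RPM in E14 and to 396 and 354 RPM in BG5. The difference was called for Mir302b-3p (4.40, SE 0.57) and Mir302d-3p (5.13, SE 1.01).

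The 3′ ends of miRNA reads were counted as a feature that the choice of libraries did not use. Reads with any mismatch to the hairpin past base 18 (departing ends) made up 19.0% and 19.2% of miRNA reads in E14 mPGCLC. In BG5 mPGCLC they made up 16.4% and 15.6%. They include reads whose last base matched, which were 1.62% and 1.59% of miRNA reads in E14 and 1.64% and 1.87% in BG5. The difference of means was -3.08 percentage points (19.1% ± 0.162 against 15.99% ± 0.567, SD, n = 2 each), with no overlap, and the two-sided exact permutation test gave p = 0.333, the smallest it can give. Ends with a departing A made up 11.2% in the mean of E14 and 8.87% in that of BG5. Of 128 arms with at least 500 reads in each of the 4 libraries, the share was higher in both E14 libraries in 50, higher in both BG5 libraries in 14, and overlapped in 64. Mir92-1-3p had 30.2% and 26.1% departing ends in E14 and 21.2% and 16.1% in BG5, and Mir293-3p had 3.67% and 3.53% against 0.946% and 0.986%. For Mir292-5p, at 24.5% and 27.6% in E14 and 26.6% and 25.4% in BG5, the lines overlapped. In 108 of the 128 arms the most frequent read had the same sequence in all 4 libraries.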

How the data were processed

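Small RNA was sequenced from sorted Day 6 EB cells, in 5 groups of 2 libraries by the labels. The deposited values are raw counts of each distinct read sequence. The authors trimmed adapters with cutadapt 3.2, removed the 4 random bases at each end without using them as molecular identifiers, and aligned what remained, down to a length of 15 nt, to GRCm38 (STAR 2.5.3a, at most 2 mismatches and 100 positions). PCR copies therefore stay in the counts. Libraries were run on a pair of instrument types, and the part from each is not given.

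Reads of 18 to 26 nt were matched here to the sense strand of 1174 GENCODE vM21 hairpins, requiring an exact match over the first 18 nt and at most 2 mismatches later, and summed per mature arm. Arms that reads could not separate were merged (58 merged units), and 646 of 763 arms with reads matched a RefSeq entry. Copies of near-identical hairpins are uncertain, and Mir92-1-3p and Mir92-2-3p are separated only by bases past the mature sequence. Coordinates are GRCm38, 1-based.

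Counts were tested with edgeR 4.0.16 (R 4.3.3): quasi-likelihood test, all 10 libraries, 5 group means, filterByExpr, TMM factors on total reads, Benjamini-Hochberg adjustment over 562 arms or 468 seed groups, threshold 0.05. Standard errors were derived from the log2 change and the F statistic. Printed RPM are not TMM-scaled. Nothing states that replicates came from separate differentiations, so p-values measure only the spread between these libraries. The rule for named arms took the 10 largest rises and falls among called arms without overlap and with at least 10 RPM in both libraries of the higher line, the 10 most abundant arms of each line, and the most abundant arm of each of 19 lists (43 arms in all). Other called arms were named after their values were seen. The arms, lists and comparisons were chosen with earlier results of these data known.

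Alternatives were DESeq2 1.42.0, other scalings, filters, read lengths and matches, only the libraries compared, the replicate number as a block, and each library left out. A match with 1 mismatch in the first 18 nt and a block without TMM were added after the data were seen. On simulated counts for the mPGCLC comparison with the real spread, 5.50% of 200 arms changed 4-fold and 31.5% of 200 changed 16-fold were recovered among 562, and 89.0% and 99.5% at a dispersion of 0.1. Python 3.11.15 with pandas 2.3.3, numpy 2.4.6 and scipy 1.17.1 was used for the other steps.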

Additional observations from a re-analysis of the deposited data

Results flagged for a closer look

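For 20 of the named arms the line difference in mPGCLC differed from that in non-PGCLC by the test of the difference itself (edgeR's quasi-likelihood test, Benjamini-Hochberg adjustment). In the let-7 family the difference was -4.88 for let-7a-5p, -6.11 for let-7b-5p, -4.51 for let-7c-5p, -4.91 for let-7d-5p, -3.57 for let-7f-5p, -3.77 for let-7g-5p and -8.06 for let-7i-5p, all on the log2 scale. In the miR-290 cluster it was 2.66 for Mir290a-5p, 3.59 for Mir291b-5p, 2.91 for Mir292-3p, 2.73 for Mir292-5p, 2.52 for Mir293-3p, 2.78 for Mir294-3p and 3.32 for Mir295-3p. In the miR-302 cluster it was 4.40 for Mir302b-3p and 5.13 for Mir302d-3p. Without TMM scaling 17 of the 20 arms were called in the same direction, and the other 3 were not called and were smaller by over 1.5 times, at 0.57 for Mir182-5p, 0.57 for Mir183-5p and 1.16 for Mir92-2-3p. With TMM the other arms were Mir182-5p at 1.38, Mir183-5p at 1.43, Mir92-2-3p at 2.16 and Mir465c-5p at 8.76, the last with 0 and 0.0692 RPM in BG5 non-PGCLC, so that its value has no fixed size.

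Reads with a single base that departs from a hairpin, which the arm counts leave out, were searched for changes with at least 10 RPM in both mPGCLC libraries of one line and under 1 RPM in both of the other. Of 11137 changes 2 passed, both in E14, so their difference between the mPGCLC lines restates that choice, while the non-PGCLC and SGET libraries were not part of it. Mir5121 with A62C (position 62 of the hairpin, chr7:45126918-45126991, minus strand) had 108 and 90.8 RPM in E14 mPGCLC, a mean of 99.6, and 158 and 131 RPM in E14 non-PGCLC, against 0.242 and 0 RPM in BG5 mPGCLC and 0 RPM in the other 4 libraries. Mir292 with A49G (position 49 of the hairpin, chr7:3219189-3219270, plus strand) had 11.2 and 20.1 RPM in E14 mPGCLC, a mean of 15.7, and 25.1 and 0 RPM in E14 non-PGCLC, against 0 RPM in the 6 libraries of BG5 and SGET. Reads matched to the reference hairpin of Mir292, over its whole length, numbered 1394964 and 1099466 in E14 mPGCLC. Most of them came from the more abundant arm of Mir292, which ends before position 49. They do not show that base, so the number of reference reads at position 49 is not given by these counts. Reads matched to the reference hairpin of Mir5121 numbered 2 and 0 in E14 mPGCLC and 3 and 2 in E14 non-PGCLC. They numbered 0 and 24 in BG5 mPGCLC, 0 in both BG5 non-PGCLC libraries, and 80 and 0 in SGET non-PGCLC. The other lines thus had few reads of either form there, and the near absence of the variant form in them says little. The source of these reads was not tested.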

How the results depend on the processing

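The counts of calls stayed within 1.5 times under 80 of 85 alternatives, and the mPGCLC count was 53 to 57 with 1 library left out. The seed count was then 33 to 36, the non-PGCLC count 82 to 99, and the count for the difference between line differences 33 to 50, the highest without BG5 non-PGCLC replicate 2. DESeq2 called 103 arms in mPGCLC (55 higher, 48 lower), 149 in non-PGCLC (75 and 74), 77 for the difference (46 and 31) and 72 seed groups (40 and 32), and the cause was not tested. Of the named arms' values, 664 kept direction and side of the threshold, 25 lost the call, 10 gained it and 32 changed sign. The replicate numbers do not pair the libraries (r = 0.05 between the mPGCLC lines), and fits with the replicate block called 66 arms in mPGCLC, 95 in non-PGCLC, 40 for the difference and 53 seed groups, or, without TMM, 63, 108, 44 and 43. The shares did not change with the block, whose smallest p is 0.5, and moved between -18.1 and -11.3 points for miRNA reads and between -3.48 and -2.68 points for departing ends with 1 library left out.

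All changes of sign were in arms that were not called. With miRNA reads as the library size, log2 changes turned to 0.41 for Mir148a-3p, 0.37 for Mir183-5p, 0.82 for Mir27b-3p, 0.91 for Mir30d-5p, 0.99 for the Mir669 arm of the Sfmbt2 cluster, 0.96 for Mir92-1-3p and 0.98 for Mir92-2-3p. With total reads they turned to 0.088 for Mir30d-5p, 0.17 for Mir669, 0.10 for Mir92-1-3p and 0.11 for Mir92-2-3p, and with the block and total reads to 0.036, 0.13, 0.077 and 0.093. With exact matches they were 0.032 for Mir27b-3p, 0.0044 for Mir669, 0.11 for Mir92-1-3p and 0.075 for Mir92-2-3p. DESeq2 gave 0.0036 and RLE scaling 0.0037 for Mir669. Mir16-5p turned to -0.12 with TMM computed without the miR-290 cluster, and Mir351-5p to -0.10 with reads of 20 to 24 nt. With 1 library left out, values ran from -0.091 to 0.15 for Mir16-5p, from -0.27 to 0.25 for Mir669, from -0.16 to 0.062 for Mir92-1-3p, from -0.16 to 0.11 for Mir92-2-3p and from -0.23 to 0.025 for Mir30d-5p. Rare arms were the least precise. At 1 to 10 RPM the median log2 gap between replicates was 2.54 in E14 and 2.82 in BG5 mPGCLC, against 0.25 and 0.45 over 1000 RPM.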
